A study of Homo sapiens with 36 samples.

Results

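HSP90 proteins and their co-chaperones were described through 10 genes of the 61587 in the deposited count table. The genes were chosen by name, as the rows whose Ensembl identifiers carry the symbols HSP90AA1, HSP90AB1, HSP90B1, TRAP1, AHSA1, CHORDC1, STIP1, PTGES3, FKBP4 and CDC37 in GENCODE release 44. All 10 were found, and all 10 passed the filter on low counts. The libraries came from HEK 293T cells, an established human embryonic kidney line. TXNL1 was knocked out (KO) by transfecting a CRISPR–Cas9 plasmid, and clones grown from sorted cells were screened. How many clones went into these libraries is not given in the sources used here. KO cells were stably complemented with lentiviral constructs under the CMV promoter, and the 4 lines compared are KO cells with an empty vector, wild-type (WT) TXNL1, D162R R234D TXNL1, which binds proteasomes poorly, or SxxS TXNL1, whose thioredoxin motif has lost its cysteines. Each line was left untreated (DMSO in the labels), exposed to 100 µM arsenite or exposed to 600 µM hydrogen peroxide for 6 h. This gave 12 groups of 3 replicate wells and 36 libraries, all in the KO background, with no parental cells among them. The design asks how these oxidants change transcripts and whether TXNL1 or its variants alter that response.

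HSP90 is an ATP-driven dimeric chaperone that acts late in folding, on clients such as protein kinases and steroid hormone receptors. HSP90AA1 encodes the stress-inducible and HSP90AB1 the constitutive cytosolic form, HSP90B1 the form of the endoplasmic reticulum (ER), and TRAP1 the mitochondrial form. Co-chaperones steer the cytosolic cycle: STIP1 links HSP70 to HSP90, CDC37 delivers kinases, AHSA1 stimulates the ATPase, PTGES3 (p23) slows it and stabilises the closed dimer, FKBP4 is a peptidyl-prolyl isomerase that serves steroid receptors, and CHORDC1 is a stress-responsive partner of the HSP90 ATPase domain. The heat shock factor HSF1 is known to drive cytosolic HSP90 genes through heat shock elements (HSEs), inverted repeats of the letters GAA, whereas HSP90B1 belongs to the unfolded protein response of the ER, which acts through ER stress response elements (ERSEs).

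On GRCh38, the cytosolic HSP90 genes are HSP90AA1 (ENSG00000080824.19, chr14:102080742-102139699, minus strand) and HSP90AB1 (ENSG00000096384.20, chr6:44246166-44253888, plus strand). The organelle forms are HSP90B1 (ENSG00000166598.16, chr12:103930107-103953931, plus strand) and TRAP1 (ENSG00000126602.11, chr16:3651639-3717553, minus strand). Among the co-chaperones, AHSA1 (ENSG00000100591.8, chr14:77457870-77469472) and STIP1 (ENSG00000168439.17, chr11:64185272-64204543) are on the plus strand, as is FKBP4 (ENSG00000004478.8, chr12:2794970-2805423). CHORDC1 (ENSG00000110172.12, chr11:90200429-90223077), PTGES3 (ENSG00000110958.16, chr12:56663341-56688408) and CDC37 (ENSG00000105401.9, chr19:10391133-10420121) are on the minus strand. Of the exonic bases of TRAP1, 28.5% are also exonic in another gene, mainly DNASE1 on the opposite strand, and the library was strand-specific, but use of strand in the counting is not given in the sources used here. The overlap was 11.4% for FKBP4, 9.7% for STIP1 and 8.0% for HSP90B1, and it was at most 3.9% for the other 6 genes.

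RefSeq start-site windows (250 bases before to 50 after the start, GRCh38.p14) were at hand for 9 of the 10 genes, all but FKBP4, with 14 windows in all. A run of 3 HSE units (GAA, TTC and GAA, with 2 bases of any kind between neighbours) was searched on both strands and occurred in windows of 3 genes, HSP90AA1, HSP90AB1 and CHORDC1. Over all 35116 RefSeq windows of that length, 172 (0.490%) held them, a share of windows and not of genes. The ERSE letters, CCAAT and CCACG with 9 bases of any kind between them, were also searched on both strands and occurred in 27 windows (0.0769%), among them that of HSP90B1 and of no other gene of the 9. The stretches that hold these letters are shown because they separate the 3 cytosolic genes from HSP90B1, and capitals mark HSE matches of 2 or 3 units or the fixed letters of the ERSE. Positions count from the RefSeq start, where the first base before it is -1.
HSP90AA1, chr14:102087093-102087144, minus strand, -100 to -49: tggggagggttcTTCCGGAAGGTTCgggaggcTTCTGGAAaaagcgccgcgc
HSP90AB1, chr6:44247766-44247855, plus strand, -177 to -88: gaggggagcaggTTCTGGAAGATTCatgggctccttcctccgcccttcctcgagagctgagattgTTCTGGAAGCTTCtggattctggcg
CHORDC1, chr11:90223078-90223118, minus strand, -69 to -29: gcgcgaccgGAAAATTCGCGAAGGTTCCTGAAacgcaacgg
HSP90B1, chr12:103930216-103930234, plus strand, -194 to -176: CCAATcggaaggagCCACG
HSP90B1, chr12:103930321-103930339, plus strand, -89 to -71: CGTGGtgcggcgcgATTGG

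HSP90AA1 held one 3-unit match at -88 to -76 and a 2-unit match at -68 to -61, in the window of its downstream start. HSP90AB1 held 3-unit matches at -165 to -153 and at -112 to -100, in the last of its 3 windows. In CHORDC1, 3 overlapping 3-unit matches ran from -60 to -38. Matches of 2 units, written GAANNTTC or TTCNNGAA, are contained in the 3-unit letters and were far more common, in 13.5% of all windows. They occurred in windows of 4 of the 9 genes, the fourth being STIP1, whose match lay at 14 to 21 after a start. This counts genes, some with several windows, so it is not set against the 13.5% of single windows. The windows of TRAP1, AHSA1, PTGES3 and CDC37 held none of the letters searched, which says nothing about sequence outside these windows. A match is a description of letters, and binding was not measured. These 4 genes without matches also rose with arsenite (below), and a link between the letters and the response was not tested.

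**Figure D1:**
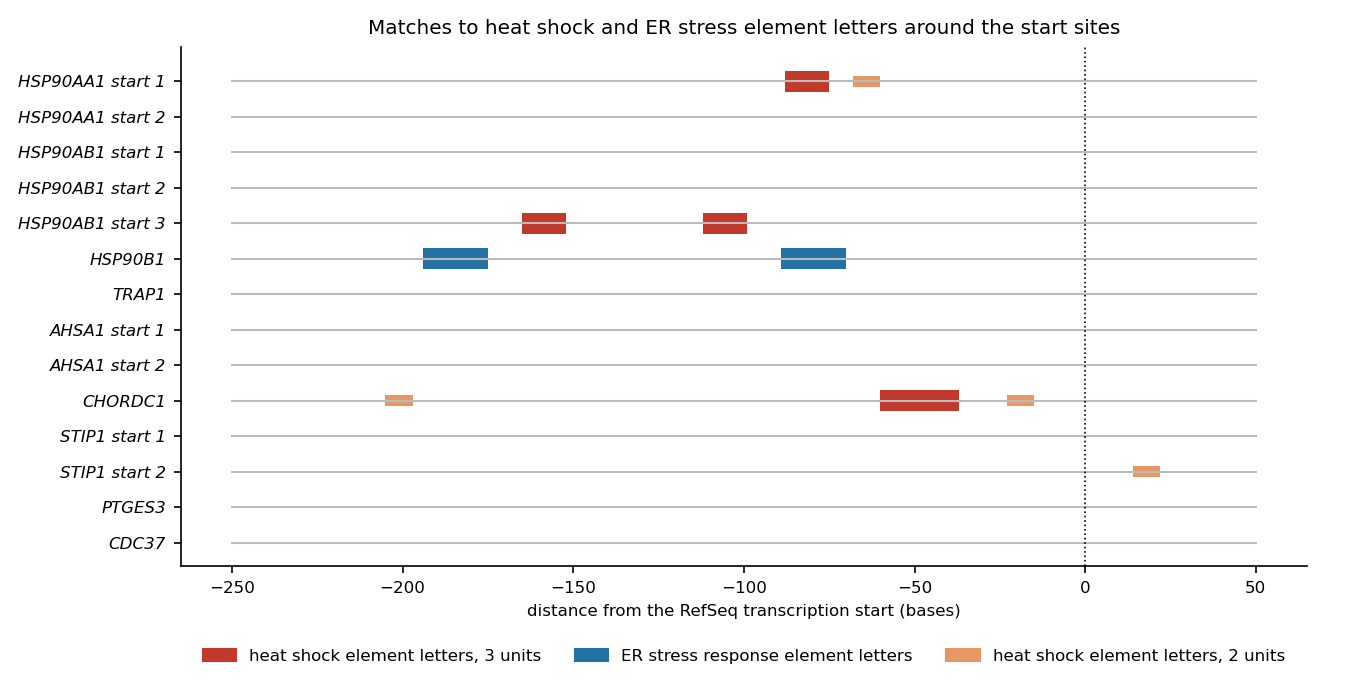
Matches to the searched letters in the 14 RefSeq windows, drawn by distance from the transcription start in bases (x axis), with 1 line per window. The 3-unit HSE letters (red) lie upstream of starts of HSP90AA1, HSP90AB1 and CHORDC1, and the ERSE letters (blue) only in the window of HSP90B1.

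The libraries held 42072410 to 174119002 counts (median 66016833), so the 10 genes were measured on many reads and the least abundant, CHORDC1, had at least 6538 counts in each library. The values below are CPM, each library's counts scaled to 1 common total with TMM factors. They are shares of RNA from whole cultures, so fewer cells and less RNA per cell cannot be told apart. In the KO line with the vector, TXNL1 itself was still counted, at 31.7, 31.6 and 28.6 CPM when untreated, below the 51.7 to 66.2 CPM of the complemented lines, whose counts can come from the transgene. HEK 293T markers were partly present. VIM lay between 452 and 609 CPM, KRT18 between 42.6 and 78.9 CPM and KRT8 between 13.7 and 21.5 CPM. The other listed markers were low, with maxima of 3.15 (NEFL), 2.21 (LHX1), 1.88 (EYA1), 0.821 (PAX2) and 0.299 CPM (NEFM). PTPRC, ALB, PECAM1 and INS, which mark other cell types, stayed at or under 0.301 CPM. COL1A1, a fibroblast marker listed with them, lay between 9.97 and 22.5 CPM. Replicate 1 of WT with arsenite and replicate 2 of WT with hydrogen peroxide stood apart from their groups. Their log2 CPM differed from the other replicates with an SD of 0.53 and 0.61 over 12043 genes, against 0.0505 to 0.168 in the other 34 libraries, and they hold 174119002 and 107763112 counts. For the 10 genes, averaged responses and calls are given with and without both. Levels, likeness and values of single genes outside the 10 include them. Nothing in the labels says that replicates were separate cultures, so p-values measure the spread between these wells.

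Untreated cells held the 10 transcripts at very different levels. Together they made up a median of 0.986% of all counts (0.964 to 1.05% over 12 libraries), and HSP90AA1 and HSP90AB1 alone made up 0.578%. Levels of different genes are compared per kilobase of the canonical GENCODE transcript, a length chosen after the lengths in the file were seen to hold all exons of all isoforms. On that scale, HSP90AB1 led with 1023 ± 45.2 CPM per kilobase (SD, n = 12), and HSP90AA1 followed with 977 ± 39.3, their ranges overlapping. STIP1 (405 ± 10.2) and PTGES3 (383 ± 11.3) came next and also overlapped, and HSP90B1 (298 ± 6.49) lay below both without overlap. CDC37 (181 ± 6.78), AHSA1 (179 ± 7.75) and TRAP1 (165 ± 5.29) overlapped with their neighbours, FKBP4 (150 ± 4.51) lay just below TRAP1, and CHORDC1 was lowest at 47.1 ± 2.96. With the lengths in the file, HSP90AB1 and HSP90AA1 still led, at 877 and 619 CPM per kilobase, and CHORDC1 was still lowest at 13.04, but HSP90B1 dropped to 63.3, the level next above CHORDC1.

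Arsenite raised 9 of the 10 transcripts and lowered 1, that of the ER form HSP90B1. Averaged over the 4 lines, all 10 passed edgeR's quasi-likelihood test at an adjusted p under 0.05 (Benjamini–Hochberg over 22486 genes), where 68.8% of all tested genes did, 37.4% as higher and 31.5% as lower. Since most genes were called, the direction and size say more than the call. The median log2 fold change of the 10 genes was 0.64, against 0.06 for all tested genes. The 10 were chosen with earlier results of these data known, so this difference is a description and was not tested. In each of the 4 lines, all 3 arsenite libraries lay above all 3 untreated ones for the 9 genes that rose and below them for HSP90B1. How many of all tested genes separate in this way was not counted, so the separation is not read as particular to the 10. As a share of all counts, the 10 transcripts went from a median of 0.986% to 1.47% (1.41 to 1.65%), and HSP90AA1 with HSP90AB1 made up 71.8% of the summed rise of 5575 CPM in the 9 genes.

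**Figure D2:**
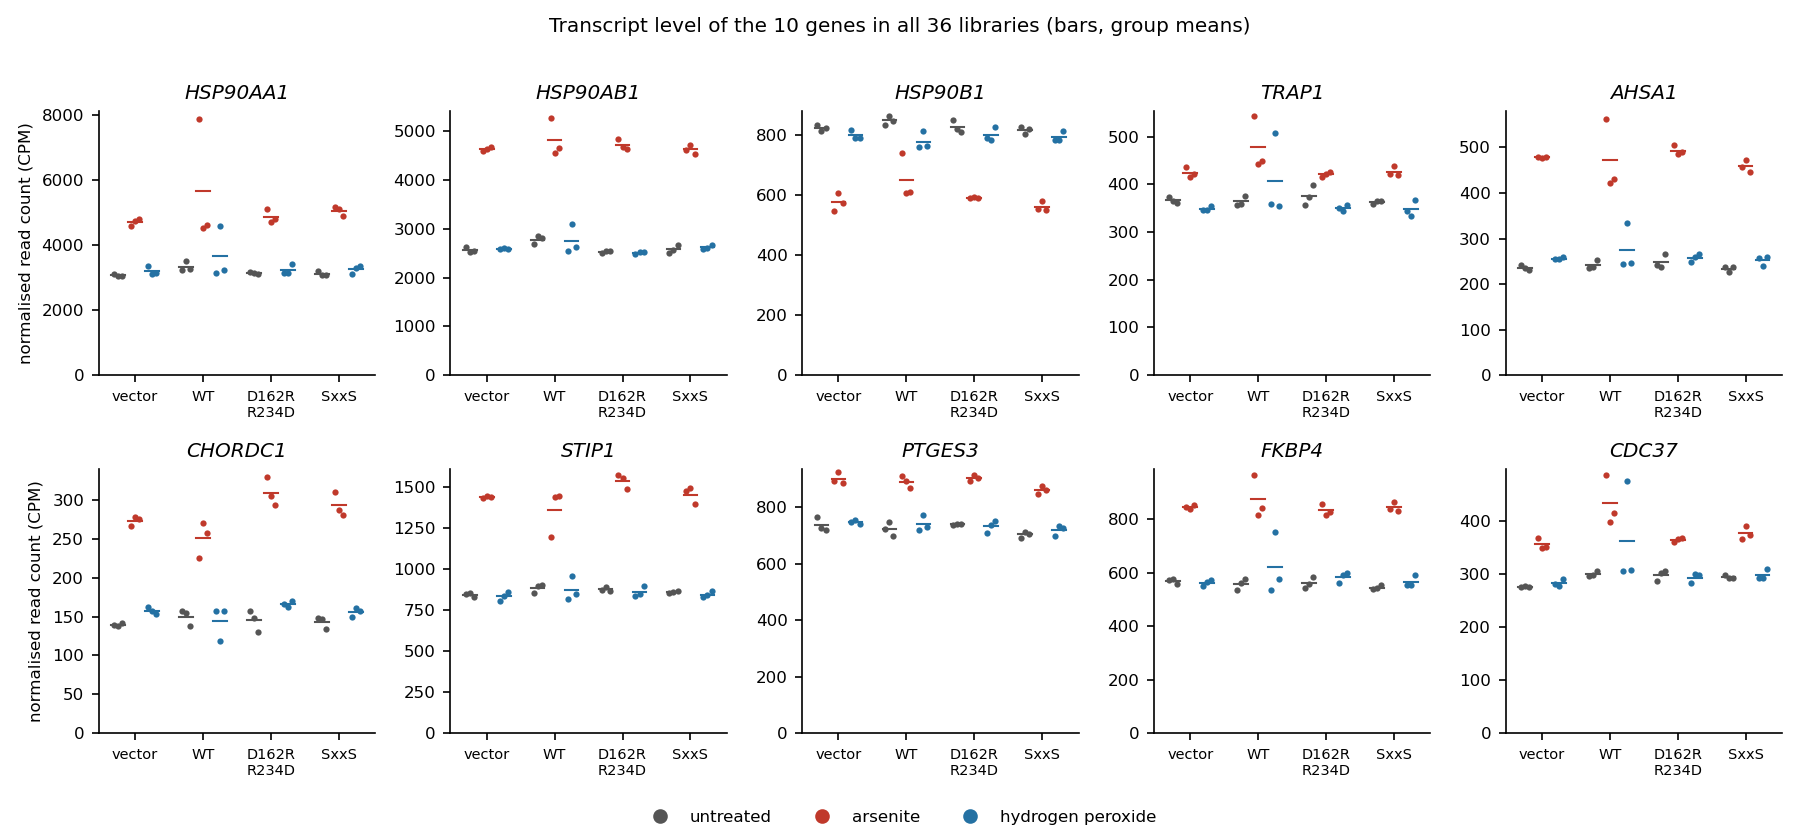
CPM of each of the 10 genes (y axis, from 0) in every library, by line (x axis) and treatment (colour), with bars at the means of 3 replicates. Arsenite libraries lie above untreated ones in all panels but HSP90B1, and the 2 outlying WT libraries are visible in HSP90AA1, at 7863 CPM with arsenite and 4576 CPM with hydrogen peroxide.

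Of the cytosolic chaperones, HSP90AB1 gained more than HSP90AA1 in CPM and in fold. HSP90AB1 stood at 2619, 2527 and 2548 CPM in untreated vector cells and at 4599, 4633 and 4668 CPM with arsenite. In WT cells it went from 2678, 2845 and 2811 CPM to 5269, 4554 and 4647 CPM. D162R R234D cells held 2510.3, 2539.7 and 2546 CPM when untreated and 4844, 4677 and 4643 CPM with arsenite. These libraries were tight: apart from WT replicate 1, arsenite libraries spanned 4538 to 4844 CPM over the 4 lines. In SxxS cells, the values were 2504, 2565 and 2671 CPM against 4618, 4719 and 4538 CPM. The log2 fold change averaged over lines was 0.85 ± 0.029 (SE, edgeR), with an adjusted p of 3.78e-21, and it was 0.81 without the outlying libraries.

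HSP90AA1, the inducible form, started higher in CPM. Vector cells went from 3114, 3035 and 3039.6 CPM to 4590.2, 4734 and 4784 CPM. WT cells went from 3220.0, 3497 and 3244 CPM to 7863, 4532 and 4605 CPM, and the first of these arsenite libraries is the outlying one. D162R R234D cells went from 3156, 3129 and 3093 CPM to 5101, 4702 and 4785 CPM. Outside WT replicate 1, no arsenite library passed 5158 CPM, so the wide spread of this gene came from that library. SxxS cells went from 3183, 3064 and 3083 CPM to 5158, 5103 and 4897 CPM. The averaged log2 fold change was 0.68 ± 0.065 (SE), with an adjusted p of 1.89e-10 by edgeR, and it fell to 0.59 ± 0.020 without the outlying libraries. Within WT alone, the log2 fold change was 0.77 with all 3 arsenite libraries and 0.43 with 2.

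The co-chaperones rose to different extents, and AHSA1, the ATPase activator, and CHORDC1 had the highest fold changes, and their order turned with the outlying libraries. AHSA1 stood at 241, 235 and 230.0 CPM in untreated vector cells and at 480.0, 476 and 479 CPM with arsenite. In WT cells, it went from 235, 236 and 252 CPM to 563, 422 and 430.2 CPM, with the highest value again in replicate 1. D162R R234D cells went from 243, 238 and 266 CPM to 504, 486 and 489 CPM. Each untreated value was thus well below each arsenite value. SxxS cells went from 238, 227 and 236 CPM to 458, 473 and 446 CPM. The averaged log2 fold change was 0.99 ± 0.045 (SE, edgeR, adjusted p = 6e-18), a 1.98-fold rise, and it was 0.93 without the outlying libraries.

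CHORDC1 rose almost as much as AHSA1, from the lowest level of the 10. It stood at 139, 138 and 142 CPM in untreated vector cells and at 267, 279 and 276 CPM with arsenite. WT cells went from 157, 155 and 138 CPM to 225, 271 and 258 CPM, and here the outlying replicate 1 was the lowest of the arsenite libraries. In D162R R234D cells, 157, 149 and 131 CPM became 329.6, 306 and 294 CPM. In SxxS cells, 149, 147 and 134 CPM became 311, 288 and 281 CPM. WT arsenite libraries were therefore the lowest of the 4 lines in mean (251 CPM), and those of D162R R234D the highest (309.8 CPM). The averaged log2 fold change was 0.96 ± 0.043 (SE), with an adjusted p of 3.2e-18 by edgeR, and it was also 0.96 without the outlying libraries.

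STIP1, the adaptor between HSP70 and HSP90, went from 850.2, 852 and 829.8 CPM to 1432, 1448 and 1441 CPM in vector cells. Its WT arsenite libraries read 1194, 1443 and 1449 CPM, the first again the outlying one, and the D162R R234D libraries 1572, 1554 and 1487 CPM. SxxS libraries read 1475, 1493 and 1396 CPM, and untreated libraries of all lines lay between 829.8 and 904 CPM. No arsenite library overlapped with an untreated one, and the averaged log2 fold change was 0.74 ± 0.030 (SE, edgeR, adjusted p = 4.17e-19), and 0.74 without the outlying libraries. FKBP4, the receptor-linked isomerase, had a median of 557 CPM over 12 untreated libraries (535 to 585 CPM) and lay between 816 and 967 CPM in 12 arsenite libraries. Its log2 fold change of 0.61 ± 0.038 (SE, adjusted p = 1.52e-14 by edgeR) was close to that of HSP90AA1, and it was 0.57 without the outlying libraries.

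CDC37 and PTGES3 rose less. CDC37, the kinase loader, lay between 275 and 306 CPM in untreated libraries and between 348 and 487 CPM with arsenite, where the 3 WT libraries (487, 399 and 414 CPM) were higher than all libraries of the other lines. Its log2 fold change was 0.39 ± 0.049 (SE, edgeR, adjusted p = 4.36e-08), and 0.34 without the outlying libraries. PTGES3 lay between 693 and 765 CPM in untreated libraries and between 848 and 924 CPM with arsenite, the most even response of the 10 genes. Its log2 fold change per line was 0.29, 0.30, 0.29 and 0.29 for vector, WT, D162R R234D and SxxS, and the average was 0.29 ± 0.021 (SE, adjusted p = 2.68e-13 by edgeR), or 0.27 without the outlying libraries.

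The organelle forms differed from each other, and only that of the ER fell. HSP90B1, the ER chaperone, stood at 835, 812 and 822 CPM in untreated vector cells and at 548, 608 and 574 CPM with arsenite. WT cells went from 834, 863 and 847 CPM to 739, 606 and 609 CPM, the outlying replicate 1 being the least lowered. D162R R234D cells went from 849.9, 819 and 809.8 CPM to 589, 593 and 589 CPM. The fall was thus seen in every line, without overlap of the groups. SxxS cells went from 828, 802 and 821 CPM to 553, 581 and 549 CPM. The averaged log2 fold change was -0.48 ± 0.028 (SE, edgeR, adjusted p = 2.31e-15), and -0.52 without the outlying libraries.

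TRAP1, the mitochondrial form, had the smallest rise. In vector cells, it stood at 373, 366 and 361 CPM untreated and at 437, 415 and 421 CPM with arsenite. WT arsenite libraries read 543, 443 and 449 CPM, those of D162R R234D 416, 422 and 425 CPM, and those of SxxS 422, 438 and 419 CPM, whereas untreated libraries of all lines spanned 357 to 398 CPM. The groups did not overlap, and the averaged log2 fold change was 0.25 ± 0.043 (SE, edgeR, adjusted p = 7.82e-06), and 0.21 without the outlying libraries. Line by line, the call was firmest in WT cells (adjusted p = 0.000342), where it held in 14 of 15 alternatives. The log2 fold change was 0.16 ± 0.086 with an adjusted p of 0.13 in D162R R234D cells, and it was called in vector cells at an adjusted p of 0.0469, which held in 4 of 15 alternatives. In SxxS cells, the call (adjusted p = 0.0297) held in 8 of 15.

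Per line, arsenite called 10 of the 10 genes in vector cells, where 43.4% of all tested genes were called, and 10 in WT cells (53.6%). It called 9 in D162R R234D cells (44.0%), with TRAP1 the exception, and 10 in SxxS cells (43.6%). With the outlying libraries left out, all 10 were called averaged over lines (73.7% of all tested genes) and in each line, where the share of all tested genes called was lowest for WT (52.9%) and otherwise 56.4% (vector), 56.9% (D162R R234D) or 57.0% (SxxS).

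**Figure D3:**
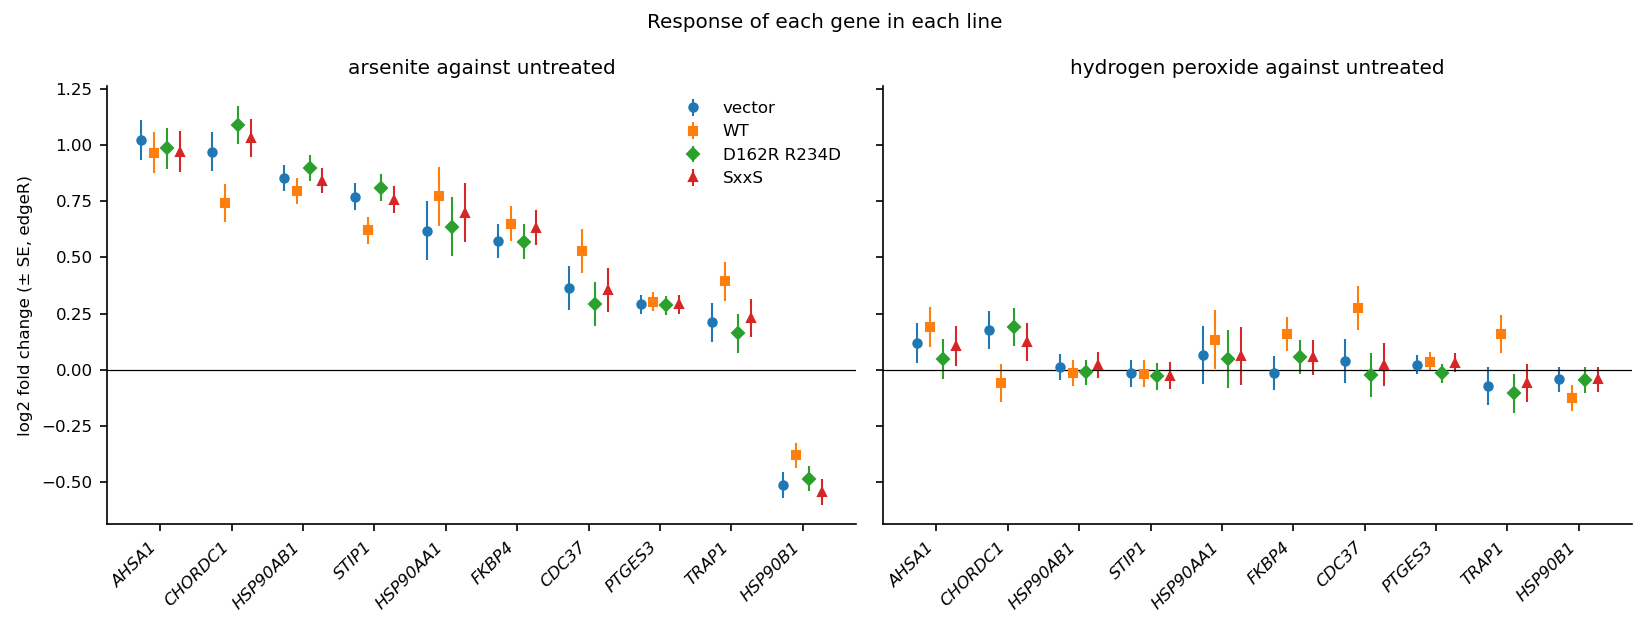
log2 fold change with its SE from edgeR (y axis) for each gene (x axis, ordered by the averaged arsenite response) in each line (symbols), for arsenite (left) and hydrogen peroxide (right). Arsenite values run from 1.09 for CHORDC1 in D162R R234D cells to -0.54 for HSP90B1 in SxxS cells, and hydrogen peroxide values lie between -0.13 and 0.27.

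Hydrogen peroxide left these transcripts near their untreated levels. None of the 10 genes was called by edgeR averaged over the lines (3 had an unadjusted p under 0.05), where 12.1% of all tested genes were. DESeq2 also called 0 of the 10, out of 3180 genes in all. The median log2 fold change of the 10 was 0.04, against 0.005 over all tested genes. The 3 with an unadjusted p under 0.05 were AHSA1 (0.12 ± 0.045, SE, adjusted p = 0.0904), CHORDC1 (0.11 ± 0.042, adjusted p = 0.101) and HSP90B1 (-0.06 ± 0.028, adjusted p = 0.148). HSP90AB1 had a log2 fold change of 0.00 ± 0.028, with 2487 to 3087 CPM in treated libraries against 2504 to 2845 CPM in untreated ones.

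This result depended on the outlying libraries. WT replicate 2 with hydrogen peroxide read 4576 CPM for HSP90AA1 where its companions read 3126 and 3228 CPM, 476 CPM for CDC37 (306 and 307 CPM in the others), 507 CPM for TRAP1 (359 and 354 CPM) and 118 CPM for CHORDC1 (157 and 157 CPM). Without it and the outlying arsenite library, 5 of the 10 genes were called, where 28.6% of all tested genes were. CHORDC1 (0.13 ± 0.027, SE, adjusted p = 0.000276) and AHSA1 (0.07 ± 0.020, adjusted p = 0.00683) rose, and HSP90B1 (-0.08 ± 0.018, adjusted p = 0.000804), TRAP1 (-0.07 ± 0.019, adjusted p = 0.00327) and STIP1 (-0.05 ± 0.017, adjusted p = 0.0469) fell, all by edgeR and all by small amounts. For CHORDC1, the 3 treated libraries lay above the 3 untreated ones in vector (161.9, 158 and 154 against 139, 138 and 142 CPM), D162R R234D (166, 162.4 and 170.3 against 157, 149 and 131 CPM) and SxxS cells (149.99, 161.8 and 157 against 149, 147 and 134 CPM), and the groups overlapped in WT cells. TRAP1 lay below its untreated libraries without overlap in vector and D162R R234D cells. AHSA1 lay above without overlap in 2 lines, FKBP4 and CDC37 above in 1 line each, and HSP90B1 below in 1 line. How many of all tested genes separate in this way after hydrogen peroxide was not counted, so the separation is not read as particular to the 10.

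Per line, edgeR called 0 of the 10 genes after hydrogen peroxide in vector, WT, D162R R234D and SxxS cells, where it called 1.35, 8.06, 1.03 and 1.02% of all tested genes. At an unadjusted p under 0.05 by edgeR there were 1, 4, 1 and 0. DESeq2 also called 0 of the 10 in each line, out of 539, 2604, 468 and 444 genes in all. With both outlying libraries removed, CHORDC1 was called in vector cells (0.16 ± 0.054, SE, adjusted p = 0.0447, where 9.87% of all tested genes were) and in D162R R234D cells (0.19 ± 0.053, adjusted p = 0.0202, 10.4%), HSP90AB1 (-0.11 ± 0.033, adjusted p = 0.0246) and HSP90B1 (-0.16 ± 0.038, adjusted p = 0.00469) fell in WT cells (8.98%), and none was called by edgeR in SxxS cells (6.56%), where 2 had an unadjusted p under 0.05. Arsenite and hydrogen peroxide share the untreated libraries, so the treatments were also compared directly. All 10 genes differed, 9 higher and HSP90B1 lower with arsenite, where 68.7% of all tested genes were called, 37.3% as higher and 31.3% as lower. The log2 difference was 0.87 ± 0.045 (SE, edgeR, adjusted p = 1.1e-16) for AHSA1, 0.85 ± 0.029 for HSP90AB1, 0.85 ± 0.042 for CHORDC1 and -0.42 ± 0.028 for HSP90B1. All 10 again differed once the outlying libraries were left out (74.8% of all tested genes). The doses differ in agent and amount, so the values describe these exposures.

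Over all libraries, edgeR called no difference between the lines in any of the 10 transcripts. In untreated cells, edgeR called 0 of the 10 genes for WT, D162R R234D and SxxS against vector, where 0.196, 0.0267 and 0.0178% of all tested genes were called, and 0 had an unadjusted p under 0.05. With arsenite, the counts were again 0, where 1.33, 0.0222 and 0.0267% of all tested genes were called, with 3, 1 and 0 genes at an unadjusted p under 0.05. With hydrogen peroxide, they were 0, with 0.2, 0.0178 and 0.0445% of all tested genes called and 2, 0 and 0 genes at an unadjusted p under 0.05. DESeq2 called HSP90B1 in WT against vector with arsenite (0.19 ± 0.058, SE, adjusted p = 0.0282), out of 1121 genes in all. It also called CDC37 in WT against vector with hydrogen peroxide (0.36 ± 0.10, adjusted p = 0.0365), out of 364. In the other 7 comparisons it called 0 of the 10, out of 9 to 140 genes. For HSP90B1 and CDC37 in the comparisons named, edgeR gave 0.07 ± 0.038 and 0.12 ± 0.038 without the outlying libraries, neither called.

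CDC37 stood higher in WT than in vector cells in each treatment, with all 3 WT libraries above all 3 vector ones. How many of all tested genes separate between lines in this way was not counted, so the separation is not read as particular to CDC37. Untreated libraries read 297, 298 and 306 CPM in WT and 275, 277 and 276 CPM in vector cells, without overlap, and the difference was 0.12 ± 0.097 (SE, edgeR, adjusted p = 0.989) over all libraries and 0.12 ± 0.034 (adjusted p = 0.0417) without the outlying ones. With arsenite it was 0.28 ± 0.097 (adjusted p = 0.116) and, without the outlying libraries, 0.19 ± 0.038 (adjusted p = 0.00382). D162R R234D and SxxS cells read 287 to 305 CPM when untreated, also above all 3 vector libraries, with edgeR differences of 0.11 ± 0.097 and 0.09 ± 0.097 against vector (adjusted p = 1 in both). Without the outlying libraries, AHSA1 with arsenite was lower in WT than in vector cells (-0.17 ± 0.043, adjusted p = 0.0196), and HSP90AB1 was higher in untreated WT cells (0.12 ± 0.029, adjusted p = 0.0222). With these libraries left out, 2.96% of all tested genes were called in WT against vector with arsenite, and 2.99% in untreated cells. For D162R R234D and SxxS against vector, 0 of the 10 were called by edgeR without these libraries, where 0.0756 and 0.142% of all tested genes were called untreated, 0.0978 and 0.378% with arsenite, and 0.08 and 0.156% with hydrogen peroxide, and 1, 2, 2, 3, 0 and 1 of the 10 had an unadjusted p under 0.05 in that order. For WT against vector with hydrogen peroxide, 0 were called (0.205%), and 1 had an unadjusted p under 0.05.

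Whether the lines differed in their response was tested as an interaction. Over the 4 lines, 0 of the 10 genes were called for arsenite by edgeR (0.0% of all tested genes, 1432 of which had an unadjusted p under 0.05) and 0 by DESeq2, which called 35 genes in all. CHORDC1 was the 1 gene of the 10 with an unadjusted p under 0.05 (0.037, adjusted p = 0.75). For hydrogen peroxide, the counts were 0 and 0, with 0.685% of all tested genes called by edgeR and 320 genes by DESeq2. None of the 10 had an unadjusted p under 0.05. Without the outlying libraries, edgeR still called 0 of the 10 for either treatment, where 0.205% of all tested genes were called for arsenite and 1.51% for hydrogen peroxide, and 4 and 1 of the 10 had an unadjusted p under 0.05. The arsenite responses of WT cells and of cells with the variant that binds proteasomes poorly were also set against each other. Here edgeR called 0 of the 10 (0.0% of all tested genes, with 3603 at an unadjusted p under 0.05) and DESeq2 also 0 of the 10, out of 169 genes in all. Unadjusted p values under 0.05 were seen for CHORDC1 (-0.35 ± 0.12, SE, adjusted p = 0.216) and STIP1 (-0.19 ± 0.085, adjusted p = 0.292), both with a smaller rise in WT cells. Without the outlying libraries, HSP90AB1 was called (-0.18 ± 0.044, adjusted p = 0.0294, where 1.39% of all tested genes were called) and CHORDC1 stood at -0.28 ± 0.080 (adjusted p = 0.0626). With only the outlying WT arsenite library left out, 0 of the 10 were called by edgeR in this comparison.

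The balance of the cytosolic forms shifted toward HSP90AB1 with arsenite. The ratio of HSP90AA1 to HSP90AB1, as counts per base of the gene length in the file, needs no scaling between libraries. In vector cells, it was 0.695, 0.702 and 0.697 untreated and 0.583, 0.597 and 0.599 with arsenite. WT cells read 0.703, 0.719 and 0.675 against 0.872, 0.582 and 0.579, where the outlying library was above and the other 2 below every untreated value. D162R R234D cells read 0.735, 0.720 and 0.710 against 0.616, 0.588 and 0.603. Apart from that 1 library, arsenite and untreated groups did not overlap in any line. SxxS cells read 0.743, 0.698 and 0.675 against 0.653, 0.632 and 0.631. The mean log2 difference over lines was -0.18, with p = 0.00259 in an exact two-sided permutation test of treatment labels within lines (160000 arrangements). Without the outlying libraries it was -0.23, with p = 1.25e-05, the smallest that 80000 arrangements can give in this exact test.

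With hydrogen peroxide, the ratio moved slightly the other way. Treated libraries had a median of 0.732 (0.699 to 0.867) against 0.703 (0.675 to 0.743) in untreated ones, so the ranges overlapped. The mean log2 difference was 0.07 (exact permutation p = 0.0082, two-sided), and 0.05 (exact permutation p = 0.0168) without the outlying libraries. Over the lines, it ran from 0.04 in SxxS to 0.13 in WT cells, where it was 0.04 without the outlying library. Adjusted over these 2 tests, the exact permutation p was 0.00518 for arsenite and 0.0082 for hydrogen peroxide. Per base of the canonical transcripts, the median ratio was 0.951 untreated, 0.813 with arsenite and 0.991 with hydrogen peroxide, which changes the level of the ratio and none of these differences.

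**Figure D4:**
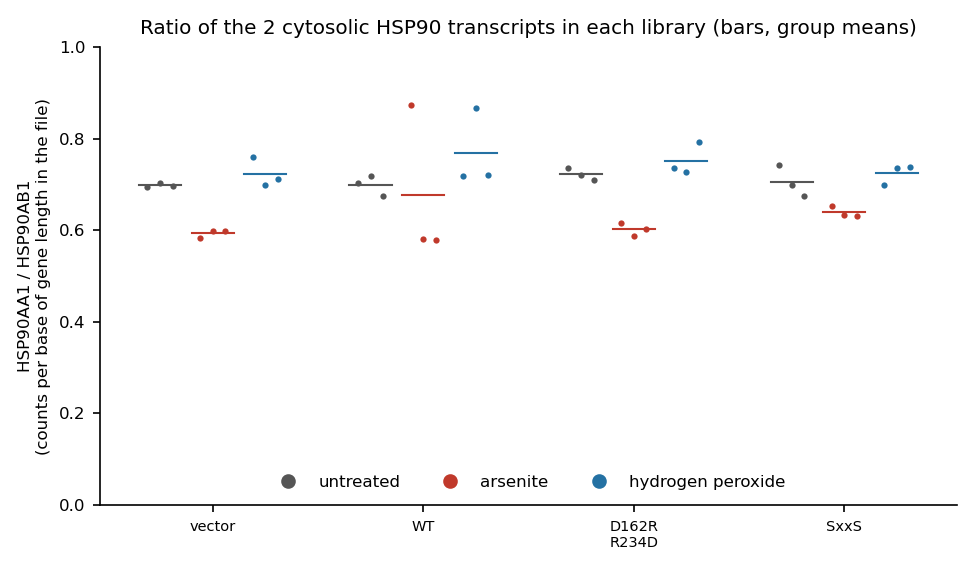
Ratio of HSP90AA1 to HSP90AB1 counts per base of gene length in the file (y axis, from 0) in each library, by line (x axis) and treatment (colour), with bars at group means. Arsenite libraries lie between 0.579 and 0.653 except WT replicate 1 at 0.872, and untreated libraries between 0.675 and 0.743.

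Among the heat shock factors, HSF1 transcript did not pass the test with arsenite averaged over the lines, and HSF2 rose slightly. HSF1 had 123 to 153 CPM untreated and 129 to 171 CPM with arsenite, with a log2 fold change of 0.07 ± 0.044 (SE, edgeR, adjusted p = 0.164). It was called in WT cells (0.26 ± 0.087, adjusted p = 0.0121), whose outlying arsenite library read 171 CPM where its companions read 143 and 142 CPM. HSF2 went from a mean of 52.0 CPM to 59.8 CPM over 12 libraries each (0.20 ± 0.039, adjusted p = 4.58e-05). HSF4 was near the detection limit, at 0.289 to 0.843 CPM untreated, and had a log2 fold change of 0.59 ± 0.14 (adjusted p = 0.000441). With hydrogen peroxide, 0 of these 3 genes were called by edgeR, and 0 had an unadjusted p under 0.05.

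The 10 genes can be set beside 32 other HSP90 co-chaperones, of which 31 were tested. Arsenite called 23 of them by edgeR, 11 higher and 12 lower, where 68.8% of all tested genes were called. Their median log2 fold change was 0.00, against 0.64 for the 10 genes. Both sets were chosen with earlier results of these data known, so the difference in medians is a description and was not tested. Higher were FLCN (1.01 ± 0.04, SE), folliculin, listed here for its HSP90 complex with FNIP1 and FNIP2 and known as an HSP90 client in nutrient signalling, NUDC (0.78 ± 0.07), CACYBP (0.78 ± 0.04), a partner of calcyclin and SIAH1, and PIH1D1 (0.76 ± 0.08), of the R2TP complex, which assembles large protein complexes. PTGES3L (0.95 ± 0.15), a relative of PTGES3, was also higher but under 1.3 CPM in every untreated and arsenite library. Lower were FKBPL (-1.13 ± 0.09), an FKBP-like co-chaperone, FNIP2 (-0.75 ± 0.11), a co-chaperone that partners folliculin, and TSC1 (-0.71 ± 0.06), hamartin, which also restrains mTORC1. With hydrogen peroxide, 1 of the 31 was called, the deubiquitylase USP19 (-0.10 ± 0.03, adjusted p = 0.0355), where 12.1% of all tested genes were. Without the outlying libraries, 14 of the 31 were called, 6 higher and 8 lower, where 28.6% of all tested genes were.

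Other chaperone systems are set against the 37.4% of all tested genes that were called higher and the 31.5% called lower with arsenite. Of 12 genes of the HSP70 machinery that hands clients to HSP90, 7 were higher and 1 lower with arsenite (median log2 fold change 0.23), and the most changed was BAG3, a nucleotide exchange factor, at 3.93 ± 0.03 (SE), from 60.9 to 931 CPM in mean. The 1 lower gene, named after its values were seen, was HSPA8, the constitutive HSP70 (-0.64 ± 0.03). Neither HSPA1A nor HSPA1B was called. They are near-identical copies whose reads can be split by the counting, and whether this bears on their calls was not tested. Their missing calls are therefore not read as a missing rise. Of 16 ER chaperones and folding enzymes, 11 were lower and 1 higher (median -0.27), so HSP90B1 stood with the larger group: HSPA5, the ER HSP70, was the most changed at -1.87 ± 0.03, from 737 to 202 CPM in mean. HERPUD1, an ER membrane protein in degradation and named after its values were seen, was the higher one (0.51 ± 0.03).

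Of 14 mitochondrial chaperones and proteases, 5 were higher and 5 lower with arsenite (median 0.02), beside 37.4% and 31.5% of all tested genes. HSCB, an iron–sulfur cluster co-chaperone, changed most (0.64 ± 0.07, SE, edgeR). The other higher genes, named after their values were seen, were HSPD1 (0.49), HSPA9 (0.42), YME1L1 (0.31) and GRPEL1 (0.26), and the lower ones were CLPB (-0.31), SPG7 (-0.28), DNAJA3 (-0.28), AFG3L2 (-0.13) and GRPEL2 (-0.12), each in log2 fold change. The rise of TRAP1, at 0.25, was of the size of GRPEL1. With hydrogen peroxide, 3 of the 12 HSP70 genes, 3 of the 16 ER genes and 1 of the 14 mitochondrial genes were called, where 12.1% of all tested genes and 0 of the 10 were. Leaving out the outlying libraries gave 5 of 12, 7 of 16 and 5 of 14, beside 5 of the 10 and 28.6% of all tested genes. The arsenite counts then were 7 higher and 2 lower for HSP70, 1 and 13 for the ER, and 5 and 7 for mitochondria, where 73.7% of all tested genes were called in either direction.

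**Figure D5:**
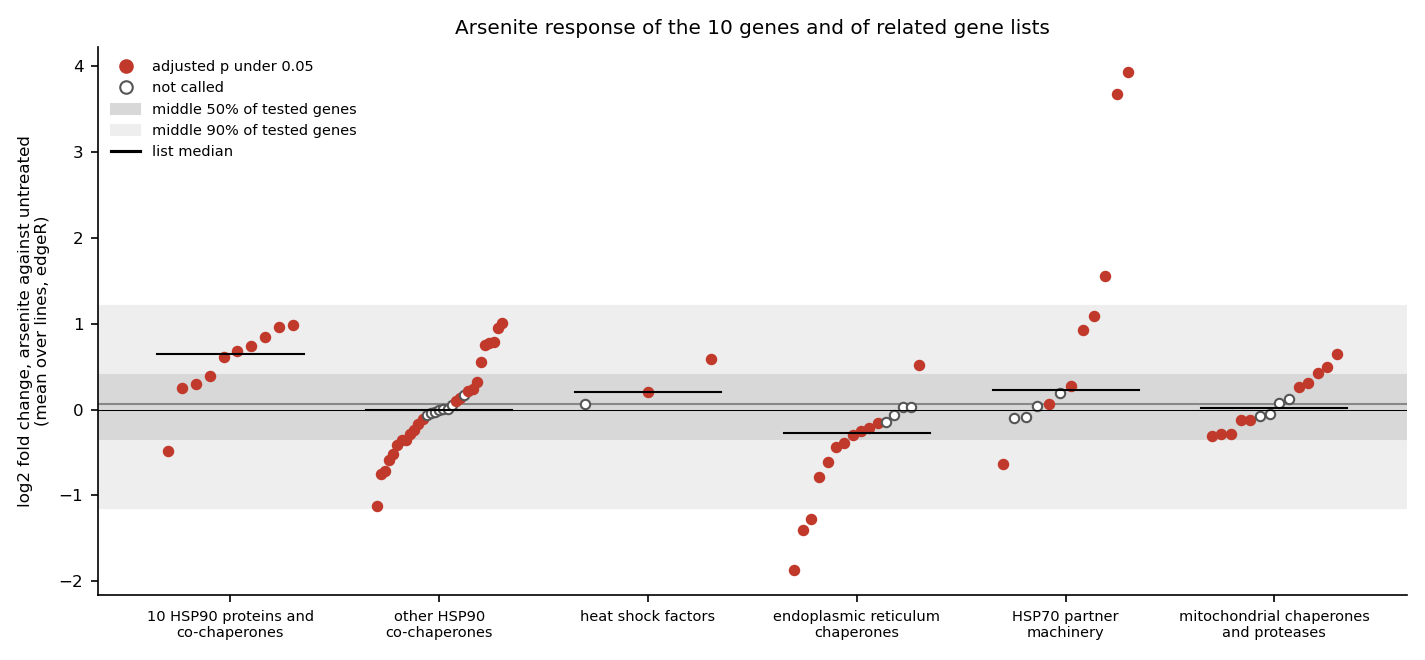
log2 fold change with arsenite, averaged over the lines (y axis), for the 10 genes and for 5 related lists (x axis), with 1 point per gene, filled where called by edgeR, and a black bar at each list's median. The medians are 0.64 for the 10 genes and between -0.27 and 0.23 for the lists, and the grey bands hold the middle 50% and 90% of all tested genes. The 10 genes and the lists were chosen with earlier results of these data known.

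Several of the 10 genes have pseudogenes that can take or give reads. Those of HSP90AA1 summed to 3.79% of its own mean count, nearly all in HSP90AA2P (11193 counts in mean), and those of HSP90AB1 to 2.93%, with HSP90AB3P leading at 7297 counts. The share was 4.07% for CHORDC1, led by CHORDC1P4 (587 counts), 3.51% for PTGES3, led by PTGES3P3 (992 counts), and 0.492% for HSP90B1, led by HSP90B2P (258 counts). It was at or under 0.0612% for FKBP4 (FKBP4P6), STIP1 (STIP1P3) and CDC37 (CDC37P2), and GENCODE lists none for TRAP1 and AHSA1. How reads with several alignments were counted is not given in the sources used here, so values of genes with such copies carry this uncertainty. With pseudogene counts added to each parent, the ratio of HSP90AA1 to HSP90AB1 kept its direction with arsenite and passed the same exact test.

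Likeness was measured as the root-mean-square difference of centred group-mean log2 CPM over the 12 groups, among 10245 genes with at least 10 CPM in mean. Nearest to HSP90AA1 was its own pseudogene HSP90AA2P (0.0251), which may share its reads, followed by SRRM1 (0.0283), EIF3H (0.0366), RBM34 (0.0402) and NGDN (0.0428). Of the other 9 genes, FKBP4 was nearest at rank 21 (0.0571), followed by STIP1 at rank 310 and HSP90AB1 at rank 367. HSP90B1 was most like UTP23 (0.0355), EIF1AX (0.0403) and MRPL19 (0.0416), whose log2 fold changes with arsenite were -0.51, -0.46 and -0.50. TRAP1 was most like LCMT1 (0.0176), RPL5 (0.0255) and MTCH1 (0.0258), and among the 10 genes its nearest were PTGES3 (0.0699) and CDC37 (0.0727). These distances share libraries and carry no test.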

How the data were processed

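RNA was extracted from triplicate wells, and mRNA libraries were sequenced strand-specifically on DNBseq. Per the study's methods, reads were aligned with qAlign (QuasR) to GRCh38, and the authors deposited whole-number counts per gene and library with a gene length. The annotation release, the use of strand and the counting of reads with several alignments are not given in the sources used here. The submitters' processing notes also name DESeq2.

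Of 61587 identifiers, 61415 matched GENCODE 44. Genes with at least 10 counts summed over the 3 untreated vector libraries were kept (22486), all 36 libraries were fitted with 1 mean per group in edgeR 4.0.16 (TMM, robust quasi-likelihood), and Benjamini–Hochberg values under 0.05 were called. DESeq2 1.42.0 was an alternative. The scripts were tested on simulated data. The ratio of HSP90AA1 to HSP90AB1 was tested by exact permutation within lines. Sequences are from RefSeq.

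The 10 genes and the related lists were chosen with earlier results of these data known. Named genes were these 10, HSF1, HSF2, TXNL1, up to 8 other co-chaperones called with arsenite by largest change, up to 4 called with hydrogen peroxide by smallest adjusted p, the most changed called gene of each other list, the leading pseudogene of each gene, and the 5 (HSP90AA1) or 3 (HSP90B1, TRAP1) nearest genes by likeness. The canonical transcript length was added as an alternative after the data were seen.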

Additional observations from a re-analysis of the deposited data

How the results depend on the processing

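All 10 genes kept their direction and call for arsenite averaged over the lines in all 33 alternatives, and for arsenite against hydrogen peroxide the count stayed at 10 with each library left out. Per line, leaving out 1 library gave 9 to 9 genes called with arsenite in vector, 10 to 10 in WT, 8 to 9 in D162R R234D and 9 to 10 in SxxS cells. Counts of 0 were less stable, and the cause was not tested. Without both outlying WT libraries, 5 genes were called for hydrogen peroxide averaged over lines, 1 in vector, 2 in WT and 1 in D162R R234D cells, 2 in WT against vector when untreated and 2 with arsenite, and 1 for WT against D162R R234D in the arsenite response. Scaled to total counts, hydrogen peroxide called 2 genes averaged over lines and 1 in WT cells. In that averaged comparison, 1382 of all tested genes were called higher and 1229 lower. Fitted on only the groups compared, hydrogen peroxide called 2 in vector cells, and arsenite called 1 in D162R R234D against vector. DESeq2 called 1 gene in WT against vector with arsenite and 1 with hydrogen peroxide, out of 1121 and 364 in all. Counts over all tested genes are not given here for the fits on only the groups compared, for total counts in WT cells or with 1 library left out. Counts of the 10 under those settings therefore have no background beside them.

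With 1 library left out, WT against vector gave 0 to 2 genes with arsenite (2 without WT arsenite replicate 2, 1 without replicate 3) and 0 to 3 with hydrogen peroxide (3 without WT hydrogen peroxide replicate 1, 2 without replicate 3). Hydrogen peroxide against untreated gave 0 to 3 in WT cells (3 without replicate 1, 2 without replicate 3) and 0 to 1 averaged over lines, with 1 when any WT hydrogen peroxide library was left out. The other counts of 0 stayed at 0. Shares of all tested genes called with 1 library left out are not given here. These counts are therefore not read as particular to the genes counted. The mean log2 difference of the HSP90AA1 to HSP90AB1 ratio ran from -0.23 to -0.15 for arsenite and from 0.05 to 0.08 for hydrogen peroxide.

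Of 24 correlations of deviations between same-numbered treated and untreated samples, 8 were over 0.1 (range -0.50 to 0.54), and 13 samples correlated best with their own number. All 3 pairs were over 0.1 for hydrogen peroxide in D162R R234D cells (0.52, 0.24 and 0.49), and all 6 treated samples of that line correlated best with their own number. The labels do not say that numbers pair samples, and the 3 values of a set share group means, so whether those samples are paired is not settled. No other line and treatment had all 3 over 0.1. With the replicate block, 0 of the 10 genes were called there, as without it. Elsewhere the block gave 10 genes called for arsenite averaged over lines, 0 for hydrogen peroxide, and 9 for arsenite in vector cells, where TRAP1 lost its call. Over single genes, 4348 results kept their side of the threshold under an alternative, 40 passed it only there, 22 no longer passed it, and 0 changed sign once called.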
